A study of Homo sapiens with 8 samples.

Results

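Transcript levels were compared between MOLM13 cells labelled as given back IGF2BP2 (rescue) and cells labelled as depleted of it (knockdown). The comparison takes 4 of the series' 8 libraries, 2 of rescue and 2 of knockdown, chosen by their sample titles. The other libraries are 2 of control cells, labelled WT, and 2 of cells labelled as rescued with a mutant of IGF2BP2 (mutant rescue), and they are used here as reference levels. MOLM13 is an established line of human acute myeloid leukemia, driven by a KMT2A fusion. Per the labels, virus was used to infect the cells, puromycin selection followed where needed, and mRNA was taken for RNA-seq. Neither the hairpin, the mutation nor the rescue vector is given there. Nor do the labels tell if rescue cells still carried the hairpin, or if an empty vector was put into control and knockdown cells. The construct and its delivery therefore cannot be told apart in this comparison. Replicates are not described as separate cultures, so each p-value reflects how far these libraries differ from each other, which may be technical.

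IGF2BP2 encodes a cytoplasmic protein that binds messenger RNA carrying N6-methyladenosine (m6A) and is known to stabilise bound transcripts. Type I and III interferons are secreted when cells sense viral or misplaced nucleic acid. Through their receptors and JAK kinases they activate a transcription factor complex that includes STAT2 and IRF9, which binds a promoter sequence called the interferon-stimulated response element and induces genes that block viral entry, replication and release. Several products of these genes, among them STAT2, IRF9, IRF7 and the RNA sensors, are themselves parts of the pathway. These are background statements and not results of these data.

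All values are log2 library values as deposited, and a difference is rescue minus knockdown on that scale unless another comparison is named. The values do not account for gene length, so levels of different genes are not compared. Of the 35370 genes in the table, 13030 reached 1 ppm of the linear total in at least 2 libraries and were tested with limma, in 1 model of all 8 libraries. The SD across genes of the difference between replicates ran from 0.148 to 0.303 by group. Read depth is unknown, since the values are not counts. All 8 monocyte markers and all 5 markers of the HOXA leukemia program examined were above the filter. Of 46 markers of erythroid, megakaryocytic, lymphoid, stromal and epithelial cells, 10 were at 0 in every library and 26 more were under the filter. In these bulk libraries, fewer cells of a type and less RNA per cell cannot be told apart.

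Rescue cells had higher levels of many interferon-induced genes than knockdown cells, with the largest differences in antiviral effector genes. At a Benjamini-Hochberg adjusted p under 0.05, 420 genes (3.22% of those tested) were higher in rescue and 133 (1.02%) were lower. Of the 179 tested genes in 16 lists of interferon sensing, signalling and response, 89 rose and 1 fell, with a median difference of 0.63 against 0.00 over all genes tested. These lists were drawn up with earlier results of the same libraries known, so their counts are a description and not independent evidence of direction. Of the called genes, 5 higher and 4 lower ones passed the filter on low values only through the group where they were high, so they had to differ. In the interferon lists these were IFNA2, GBP1 and SERPING1, and 86 genes rose without them. Counts over all interferon lists together, here and below, include these 3 unless stated. A difference of at least 3, an 8-fold step on this scale, was found for 38 genes, of which 33 are in the lists and 5 are not. The largest decrease was -1.65, and 9 genes fell by 1 or more. Outside the lists 331 genes rose and 132 fell. The balance of increases and decreases depends on the scaling: against 420 and 133 on the values as deposited, 328 genes were higher and 210 lower after quantile normalization, and 281 were higher and 418 lower on log2(ppm + 1), which moved the median of all genes to -0.09. The interferon-list genes called higher numbered 86 and 84 under those scalings. With 1 compared library left out at a time, 155 genes rose and 21 fell (knockdown replicate 1 left out), 158 and 18 (knockdown replicate 2), 202 and 34 (rescue replicate 1), and 201 and 42 (rescue replicate 2).

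**Figure D1:**
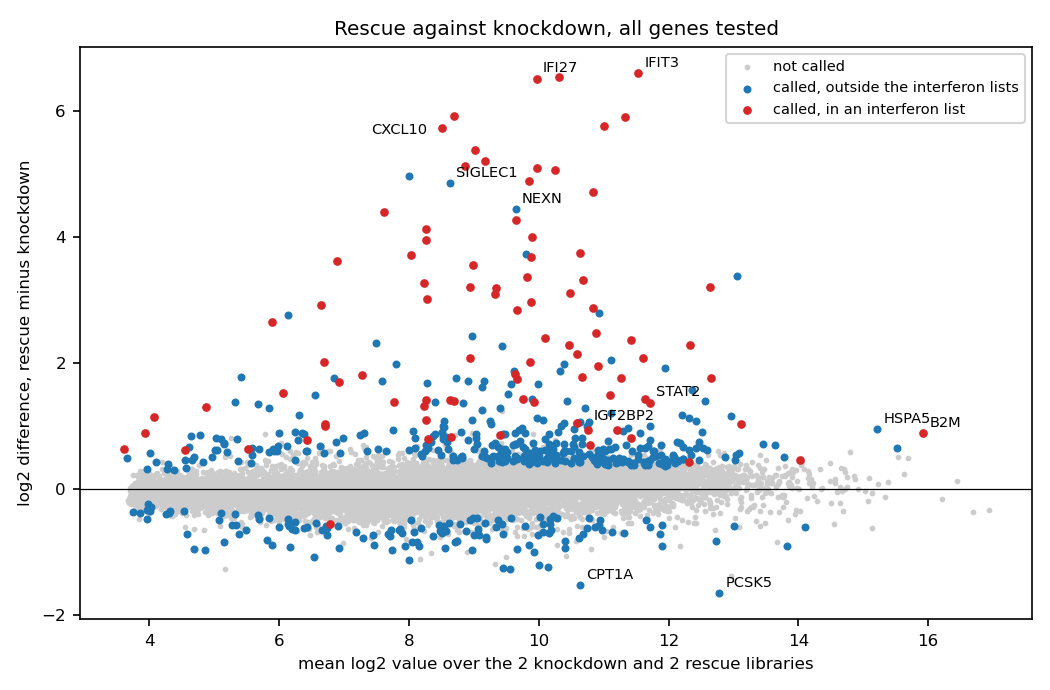
Log2 difference of rescue minus knockdown (y) against the mean log2 value over the 2 knockdown and 2 rescue libraries (x), 1 point for each of the 13030 genes tested. Red points are called genes of the interferon lists, blue points other called genes and grey points genes not called; the red points reach 6.61 (IFIT3), while the lowest blue point is PCSK5 at -1.65.

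IGF2BP2 itself checks the labels. It read 10.94 and 10.89 in control, 10.24 and 10.25 in knockdown, 11.36 and 11.13 in rescue and 11.03 and 10.68 in mutant rescue. Both rescue libraries were above all 6 others, and both knockdown libraries were below all 6 others. The difference was 1.00 (SE 0.13, adjusted p = 0.00324), and the gene-level value does not part the endogenous transcript from that of a construct. Its gene lies on chromosome 3, 185643739 to 185825056, minus strand (GRCh38). PRMT6, an arginine methyltransferase gene named in the series title, read 9.39 and 9.30 in control, 8.20 and 8.08 in knockdown, 8.81 and 8.70 in rescue and 8.49 and 8.49 in mutant rescue, so the rescue libraries lay between those of knockdown and control without overlap. Its difference of 0.62 (SE 0.11, adjusted p = 0.0157) was lost without any 1 of the 4 compared libraries (adjusted p up to 0.209). MFSD2A, the lipid transporter gene of the title, read 8.51 and 8.53 in control, 9.05 and 8.97 in knockdown, 8.995 and 8.73 in rescue and 8.87 and 8.60 in mutant rescue, with overlap between rescue and knockdown and a difference of -0.15 (SE 0.13, adjusted p = 0.61).

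Genes of nucleic acid sensing rose in part. Of 21 sensors and adaptors tested 8 rose and 0 fell, with a median difference of 0.33. DDX58, which encodes the RNA sensor RIG-I, read 7.95 and 7.92 in control, 8.02 and 8.25 in knockdown, 11.44 and 11.55 in rescue and 9.26 and 9.02 in mutant rescue. Both rescue libraries stood more than 2 above every other library, and the difference was 3.36 (SE 0.13, adjusted p = 7.23e-07). The other RIG-I-like receptor genes, IFIH1 (2.96) and DHX58 (2.93), rose as well. Others that rose were EIF2AK2 (2.48), which encodes the RNA-activated kinase PKR, and the DNA sensor genes IFI16 (2.85) and AIM2 (1.53). The adaptor gene of Toll-like receptors, MYD88, changed by 1.31 (SE 0.18, adjusted p = 0.00415), and ZBP1, a sensor of Z-form nucleic acid, by 0.64 (SE 0.10, adjusted p = 0.00722). The MYD88 call was lost without knockdown replicate 2 (adjusted p = 0.0568). The ZBP1 call was lost when either knockdown library or rescue replicate 2 was left out alone (adjusted p up to 0.097). The adaptors downstream of the RNA and DNA sensors did not pass the test: MAVS differed by -0.08 (SE 0.14, adjusted p = 0.82) and TMEM173, which encodes STING, by -0.15 (SE 0.09, adjusted p = 0.43). MB21D1, which encodes the DNA sensor cGAS, differed by -0.13 (SE 0.11, adjusted p = 0.56).

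Interferon genes themselves were near the bottom of the scale. Of the 21 interferon genes listed, 9 were at 0 in every library, and only IFNA2 passed the filter on low values. IFNA2 read 3.48 and 3.49 in control, 3.49 and 3.49 in knockdown, 4.52 and 4.76 in rescue and 3.49 and 3.58 in mutant rescue, so both rescue libraries stood above all others by at least 0.94. Its difference was 1.15. It had 1.56 and 1.86 ppm in rescue and under 1 ppm in every other library, so it passed the filter only through rescue and no test is given. The same pattern, with both rescue libraries more than 0.3 above the highest of the other 6, was seen for IFNA1, IFNA8, IFNA13, IFNB1 and IFNL1, which were under the filter and not tested. IFNB1, the gene of interferon beta, read 2.99 and 2.99 in control, 3.03 and 2.99 in knockdown, 3.502 and 3.67 in rescue and 3.07 and 3.01 in mutant rescue. IFNL1, a type III interferon gene, read 2.92 and 2.93 in control, 2.97 and 2.95 in knockdown, 3.53 and 3.52 in rescue and 2.95 and 2.93 in mutant rescue. IFNA1 read 2.86 and 2.86 in control, 2.86 and 2.86 in knockdown, 3.49 and 3.47 in rescue and 2.86 and 2.86 in mutant rescue, and the 6 libraries outside rescue spanned 0.0064. IFNA1 and IFNA13 encode near-identical transcripts, so their shares of the reads are uncertain. IFNG, the type II interferon gene, had -2.09 in all 8 libraries. At the bottom of this scale a difference understates the ratio of the transcripts.

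**Figure D2:**
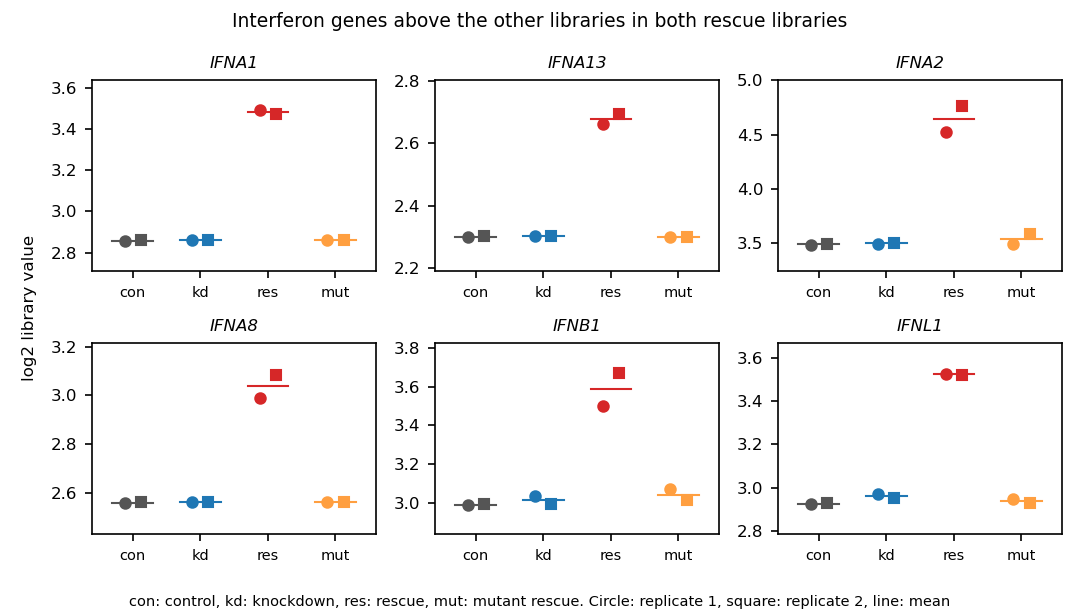
Log2 library values (y, a separate range in each panel) of the 6 interferon genes for which both rescue libraries exceeded the highest other library by more than 0.3; circles are replicate 1, squares replicate 2 and lines group means. The 2 rescue points stand alone in each panel, at 4.52 and 4.76 for IFNA2 against 3.48 to 3.58 elsewhere.

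Of 15 receptor, kinase and STAT pathway genes 3 rose and 0 fell, with a median of 0.00 and 7 of the 15 differences negative. STAT2 read 10.10 and 10.41 in control, 11.02 and 11.03 in knockdown, 12.37 and 12.42 in rescue and 11.67 and 11.80 in mutant rescue, with both rescue libraries above all others and the difference at 1.37 (SE 0.11, adjusted p = 0.000177). IRF9 (2.08, SE 0.10, adjusted p = 5.13e-06), which joins STAT2 in the type I complex, also rose. No receptor or kinase gene was called. IRF9 read 9.72 and 9.66 in mutant rescue against 9.99 and 9.97 in rescue, and the difference between these groups did not pass the test (adjusted p = 0.0982). Among the genes not called were IFNAR1 (-0.28, SE 0.11, adjusted p = 0.194) and IFNAR2 (-0.31, SE 0.10, adjusted p = 0.128), the chains of the type I receptor, and the kinase genes JAK1 (-0.22) and TYK2 (-0.07). Of 9 interferon regulatory factors 5 rose. IRF7, the factor that amplifies interferon alpha transcription, read 7.48 and 7.196 in knockdown and 10.65 and 10.44 in rescue and differed by 3.20 (SE 0.13, adjusted p = 1.4e-06). IRF1 differed by 1.43 (SE 0.10, adjusted p = 5.21e-05), BATF2 by 1.30 (SE 0.12, adjusted p = 0.000298) and IRF2 by 0.83 (SE 0.13, adjusted p = 0.00851). The IRF2 call was lost without either knockdown library or rescue replicate 2 (adjusted p up to 0.122). IRF3 (0.13), IRF5 (-0.13) and IRF8 (0.17) were not called. Of 11 feedback inhibitors 4 rose, led by USP18, a protease that removes ISG15 from proteins and blocks signalling at IFNAR2. USP18 read 7.39 and 7.55 in control, 7.42 and 7.38 in knockdown, 12.31 and 12.27 in rescue and 9.90 and 9.75 in mutant rescue, a 29.7-fold difference between rescue and knockdown (adjusted p = 2.9e-08).

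The effector genes showed the largest differences of the comparison. All 7 tested genes of the IFIT and IFITM families rose, with a median of 5.76. IFIT proteins bind foreign RNA and block its translation, and IFITM proteins hinder the fusion of viral with cell membranes. IFIT3 read 7.49 and 7.69 in control, 8.22 and 8.24 in knockdown, 14.68 and 14.99 in rescue and 12.30 and 12.18 in mutant rescue. The rescue libraries were thus above those of mutant rescue, and those above knockdown and control, with no overlap between these levels. IFIT1 (6.54), IFIT2 (5.76), IFITM1 (5.93) and IFITM3 (5.38) followed, each with an adjusted p of at most 2.9e-08. IFITM2 differed least, at 0.85 (SE 0.14, adjusted p = 0.00956), and its call was lost without any 1 of the 4 compared libraries (adjusted p up to 0.103). The annotation places IFITM2 (chromosome 11, 307631 to 315272) over IFITM1 (313506 to 315272), so reads of these similar genes may be shared.

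Sequences upstream of the leading genes are shown for the binding motif of the complex with STAT2 and IRF9. RefSeq promoter windows of 300 bases, from 250 before to 50 after a gene start (GRCh38.p14), were searched on both strands for GAAANNGAAA, a minimal form of the interferon-stimulated response element. Of all 35116 RefSeq windows, 3.57% hold at least 1 match. Of the 9423 tested genes with a window, 4.15% hold a match in any of their windows, the measure used for the lists below. The windows printed here belong to 3 of the genes with the largest increases and to ISG15, whose product is a ubiquitin-like modifier, and capitals mark the matches.
IFIT3: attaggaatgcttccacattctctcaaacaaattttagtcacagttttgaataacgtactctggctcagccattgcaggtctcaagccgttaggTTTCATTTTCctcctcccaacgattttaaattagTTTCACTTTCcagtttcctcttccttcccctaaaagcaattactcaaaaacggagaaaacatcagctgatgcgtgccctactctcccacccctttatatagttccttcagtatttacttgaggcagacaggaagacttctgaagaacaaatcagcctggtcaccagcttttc
IFIT1: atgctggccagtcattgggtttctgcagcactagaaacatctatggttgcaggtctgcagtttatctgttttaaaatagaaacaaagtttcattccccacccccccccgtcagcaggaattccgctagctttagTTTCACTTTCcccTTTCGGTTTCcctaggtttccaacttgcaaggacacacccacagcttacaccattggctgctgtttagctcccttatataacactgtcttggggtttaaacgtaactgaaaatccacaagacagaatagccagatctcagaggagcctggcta
IFI27: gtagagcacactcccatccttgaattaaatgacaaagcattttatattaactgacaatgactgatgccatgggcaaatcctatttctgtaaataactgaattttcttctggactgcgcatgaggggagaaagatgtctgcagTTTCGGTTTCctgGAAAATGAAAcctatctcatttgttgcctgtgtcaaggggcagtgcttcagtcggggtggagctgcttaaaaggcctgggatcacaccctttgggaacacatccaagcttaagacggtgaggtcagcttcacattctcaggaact
ISG15: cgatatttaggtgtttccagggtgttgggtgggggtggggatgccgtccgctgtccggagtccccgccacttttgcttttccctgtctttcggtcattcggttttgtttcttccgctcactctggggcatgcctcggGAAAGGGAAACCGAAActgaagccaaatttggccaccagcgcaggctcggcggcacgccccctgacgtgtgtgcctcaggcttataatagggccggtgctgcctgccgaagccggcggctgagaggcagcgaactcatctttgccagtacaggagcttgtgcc
They lie at chr10:89327747-89328046, plus strand, chr10:89392373-89392672, plus strand, chr14:94110486-94110785, plus strand and chr1:1013247-1013546, plus strand. The matches begin at -156 and -122 relative to the gene start in IFIT3, at -116 and -103 in IFIT1, at -108 and -95 in IFI27, and at -113 and -107 in ISG15, where they overlap. IFIT3 and IFI27 have 2 windows each, and the one with more matches is printed. The printed windows are examples, and each holds 2 matches. The window of CXCL10 (5.73) holds 1, and no match was found for OAS1 (4.71), NEXN (4.45) or UBE2L6 (3.75). Only 318 of the 420 genes higher in rescue (75.7%) and 72 of the 133 lower (54.1%) have such a window, so a comparison of these sets is void. Among lists with a window for at least 80% of their tested members, the motif was present in 7 of 12 IFI-named genes, 11 of 16 class I antigen presentation genes, 4 of 7 genes of the PARP and DTX3L list and 0 of 13 genes of the receptor, JAK and STAT list. In the 17 other lists that meet this rule it was present in 0 to 3 members, at most in 3 of 15 checkpoint and surface genes, followed by 2 of 17 genes of the HOXA and MEIS1 program. A match is a description of the letters and not evidence of binding.

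The oligoadenylate synthetases OAS1, OAS2 and OAS3 sense double-stranded RNA and make an oligonucleotide second messenger that leads to RNA cleavage. Their genes and the related gene OASL, 4 in all, rose: OAS3 (5.20), OASL (5.09), OAS2 (5.07) and OAS1 (4.71). OAS1 read 7.39 and 7.52 in control, 8.49 and 8.47 in knockdown, 13.05 and 13.33 in rescue and 11.73 and 11.70 in mutant rescue, and it was also higher in knockdown than in control (1.02, SE 0.11, adjusted p = 0.00179). OAS1, OAS3 and OAS2 are neighbours on chromosome 12, between 112906777 and 113011723. All 6 genes of the ISG15 conjugation system rose: ISG15 (3.19, SE 0.19, adjusted p = 1.63e-05), the E1 enzyme gene UBA7 (1.83), the E2 gene UBE2L6 (3.75), the ligase genes HERC5 (3.96) and HERC6 (3.01), and USP18. Their median difference was 3.47. Of 8 dynamin-like GTPase genes 5 rose, leaving out GBP1. MX2, which restricts retroviruses and herpesviruses, read 8.06 and 8.00 in knockdown and 11.62 and 11.83 in rescue, a 12.9-fold difference (adjusted p = 3.22e-07). MX1 differed by 1.81 (SE 0.14, adjusted p = 0.000119). The guanylate-binding protein genes differed less, with GBP2 at 0.80, GBP3 at 0.77 and GBP5 at 0.62. GBP1 differed by 0.89 and has no test here, since it reached 1 ppm only in rescue. The GBP2 call was lost without any 1 of the 4 compared or the 2 control libraries (adjusted p up to 0.253), that of GBP3 without any 1 of the same except rescue replicate 1 (adjusted p up to 0.289), and that of GBP5 without knockdown replicate 1 (adjusted p = 0.0776).

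Of 33 restriction factor genes 22 rose and 0 fell, with a median of 1.44. RSAD2, which encodes the antiviral enzyme viperin, read 6.90 and 6.92 in control, 7.55 and 7.47 in knockdown, 11.76 and 11.82 in rescue and 9.38 and 9.18 in mutant rescue. Its difference was 4.28 (SE 0.11, adjusted p = 8.59e-08), and the rescue libraries were more than 2 above every other library. LGALS3BP (4.13), the exonuclease gene ISG20 (3.72), the nucleotide kinase gene CMPK2 (3.57), SP110 (3.31), the helicase gene DDX60 (3.27) and C19orf66 (3.10), which blocks frameshifting by ribosomes, also rose by more than 3. The tetherin gene BST2 (2.29), PML (2.15) and PLSCR1 (2.08) were among those that rose by 2 to 3. Of 12 genes named IFI or related 8 rose, with a median of 2.63, led by IFI27 (6.52), IFI6 (5.91), IFI44L (5.13) and IFI44 (4.41). Of 8 ADP-ribosyltransferase genes and partners 6 rose, with a median of 1.74, among them PARP9 (3.997), PARP14 (2.88) and DTX3L (1.77), the ubiquitin ligase that pairs with PARP9. Within the APOBEC3 cytidine deaminases, APOBEC3G rose (1.10, SE 0.11, adjusted p = 0.000727) and the other 5 tested members, with differences from 0.00 to 0.46, were not called. ADAR, whose product edits double-stranded RNA, read 10.08 and 9.63 in knockdown and 10.71 and 10.55 in rescue, without overlap but with 0.78 (SE 0.38, adjusted p = 0.306). SAMHD1, which depletes nucleotides, differed by 0.06 (SE 0.30, adjusted p = 0.942).

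**Figure D3:**
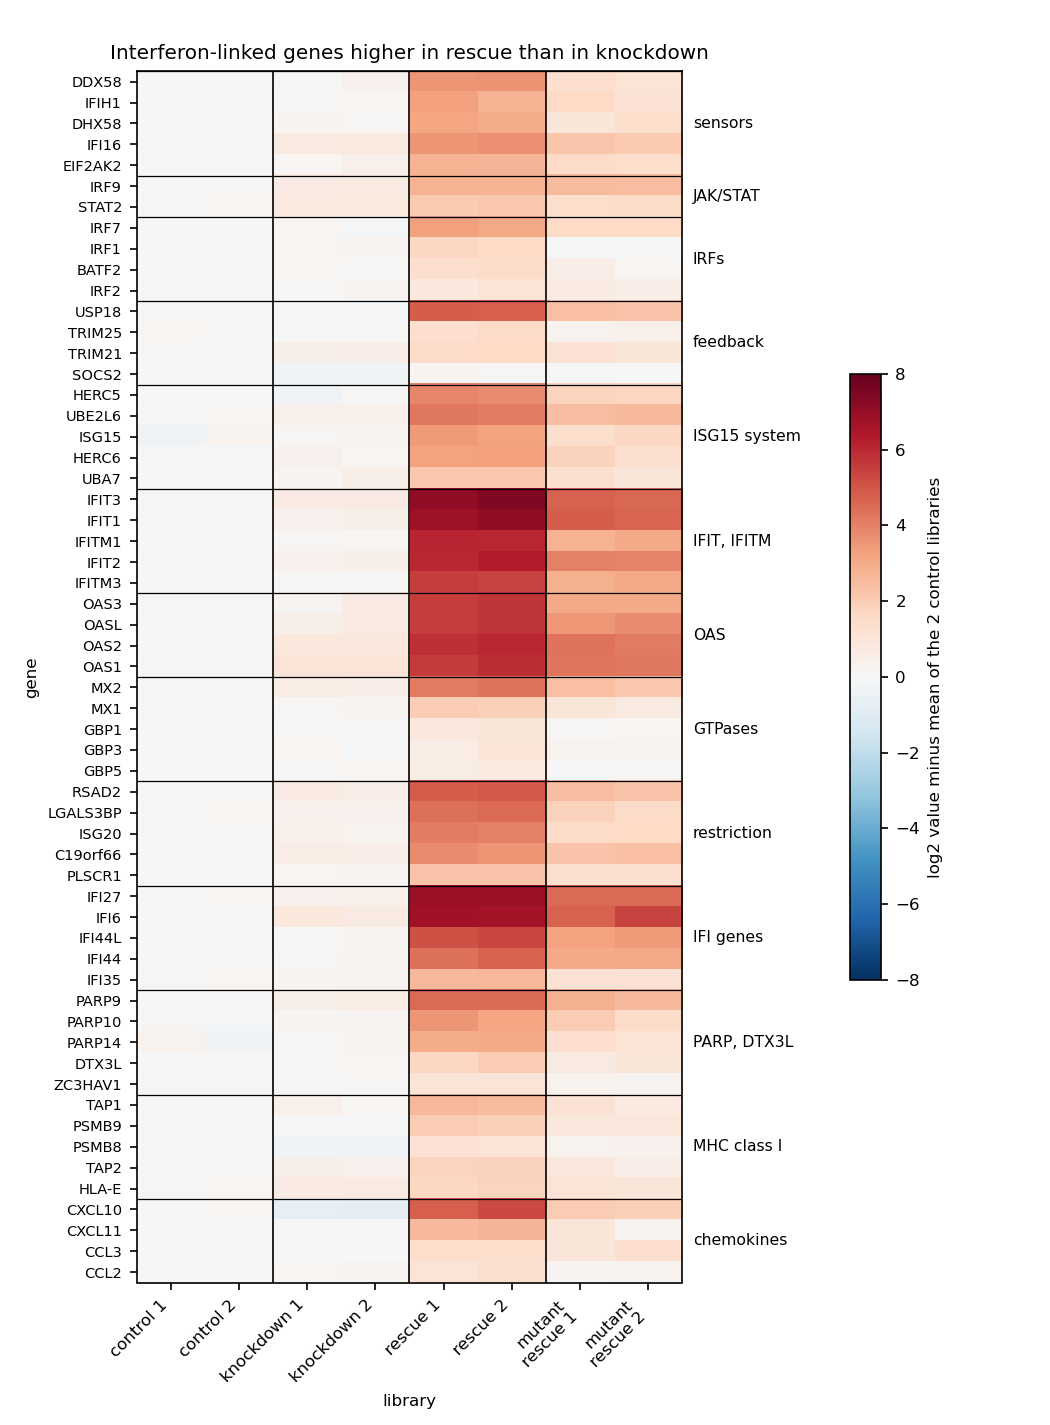
Log2 value minus the mean of the 2 control libraries (colour) for up to 5 called genes per interferon list (rows, grouped by role) in the 8 libraries (columns). The rescue columns are the darkest for nearly every gene, the mutant rescue columns are paler, and the knockdown columns lie close to control except for genes such as OAS1 (1.02 above control).

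Antigen presentation split by class. Of 20 class I genes 10 rose and 0 fell, with a median of 0.58, while of 14 class II genes 0 rose and 1 fell, with a median of -0.06. TAP1, a subunit of the peptide transporter, read 8.91 and 9.15 in control, 9.43 and 9.21 in knockdown, 11.69 and 11.54 in rescue and 10.16 and 9.80 in mutant rescue and differed by 2.30 (SE 0.15, adjusted p = 3.6e-05). The immunoproteasome genes PSMB9 (1.95) and PSMB8 (1.49), the second transporter gene TAP2 (1.42), HLA-E (1.04) and HLA-F (1.04) rose as well. B2M, the light chain of class I molecules, differed by 0.89 (SE 0.13, adjusted p = 0.00712), and the call was lost without any 1 of the 4 compared libraries (adjusted p up to 0.122). The classical heavy chain genes HLA-B and HLA-C did not pass the test, at 0.29 (SE 0.19, adjusted p = 0.439) for HLA-B and 0.54 (SE 0.21, adjusted p = 0.208) for HLA-C. Reads of these similar genes can be shared between them. The class II gene HLA-DRA fell by 0.55 (SE 0.12, adjusted p = 0.0487), a call lost without any 1 of the 4 compared or of the 2 control libraries (adjusted p up to 0.351). CIITA, the activator of class II genes that interferon gamma induces, differed by -0.18 (SE 0.14, adjusted p = 0.536). Of 8 genes known for a stronger response to interferon gamma 2 rose, IRF1 and GBP5, and SERPING1, which differed by 0.63, reached 1 ppm only in rescue and has no test here. IDO1 (0.23, SE 0.08, adjusted p = 0.155) and GBP4 (0.34, SE 0.13, adjusted p = 0.204) were not called.

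Of 12 chemokine genes 4 rose and 0 fell, with a median of 0.15. CXCL10, a ligand of CXCR3, a chemokine receptor of activated T cells, read 6.20 and 6.52 in control, 5.72 and 5.56 in knockdown, 11.13 and 11.61 in rescue and 8.38 and 8.25 in mutant rescue, a 53.1-fold difference between rescue and knockdown (adjusted p = 2.74e-07). Its knockdown libraries were the lowest of all and its rescue libraries the highest. CXCL11, which binds the same receptor, differed by 2.65 (SE 0.20, adjusted p = 8.42e-05), CCL3 by 1.41 (SE 0.14, adjusted p = 0.000602) and the monocyte attractant CCL2 by 1.01 (SE 0.12, adjusted p = 0.0015). CCL3 reads may be shared with its near-identical copy CCL3L1. CXCL8 (0.17), CCL5 (0.19), CCL4 (0.14) and 5 other chemokine genes tested were not called. In the interleukin 1 and inflammasome list 4 of 12 rose. IL1RN, the receptor antagonist, read 8.69 and 8.78 in knockdown and 10.44 and 10.36 in rescue and differed by 1.67 (SE 0.10, adjusted p = 2.54e-05). AIM2, GSDMD (0.88, SE 0.11, adjusted p = 0.00189), which encodes the pore protein of pyroptosis, and CASP4 (0.65, SE 0.15, adjusted p = 0.0454) were the others that rose. The CASP4 call was lost without any 1 of the 4 compared libraries (adjusted p up to 0.286). IL1B, which encodes interleukin 1 beta, differed by -0.38 and passed the filter only through knockdown, so no test is given.

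Of 21 NF-kB subunit, inhibitor and feedback genes 4 rose and 0 fell. NFKBIA, which encodes the inhibitor that holds NF-kB in the cytoplasm, read 13.19 and 13.34 in control, 12.35 and 12.42 in knockdown, 13.66 and 13.44 in rescue and 12.24 and 12.09 in mutant rescue. The knockdown and mutant rescue libraries were all below the control and rescue libraries. NFKBIA differed by 1.17 (SE 0.11, adjusted p = 0.0005) from knockdown and by 1.39 (SE 0.11, adjusted p = 0.000319) from mutant rescue. TNFAIP3 (1.10, SE 0.19, adjusted p = 0.0139), NFKBIZ (0.67, SE 0.13, adjusted p = 0.0282) and CD83 (0.61, SE 0.13, adjusted p = 0.0333) rose as well, and each of these calls was lost without any 1 of the 4 compared libraries (adjusted p up to 0.131, 0.217 and 0.268), that of CD83 also without either control library. Of 33 cell death genes 5 rose and 0 fell. TNFSF10, which encodes the death ligand TRAIL, read 7.15 and 7.40 in control, 7.66 and 7.84 in knockdown, 10.19 and 10.18 in rescue and 8.63 and 8.67 in mutant rescue and differed by 2.43 (SE 0.13, adjusted p = 7.04e-06). XAF1 (2.38) and MLKL (1.13), the pore-forming effector of necroptosis, rose in every fit that left out 1 library. PMAIP1, which encodes NOXA, differed by 0.92 (SE 0.12, adjusted p = 0.00351), and the call was lost without knockdown replicate 1 (adjusted p = 0.059).

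Outside the interferon lists the largest increases were in EPSTI1, SIGLEC1, NEXN, SAMD9L and LY6E. SIGLEC1, a sialic acid receptor of macrophages, read 5.63 and 5.49 in control, 6.32 and 6.09 in knockdown, 10.997 and 11.13 in rescue and 9.32 and 9.39 in mutant rescue. Its rescue libraries were above those of mutant rescue, and those above knockdown, without overlap, and the difference was 4.86 (SE 0.13, adjusted p = 8.6e-08). NEXN, which encodes an actin-binding protein, read 7.83 and 8.18 in control, 7.44 and 7.41 in knockdown, 11.78 and 11.96 in rescue and 8.87 and 8.99 in mutant rescue, with the difference at 4.45 (SE 0.14, adjusted p = 2.54e-07) and the knockdown libraries lowest. EPSTI1 differed by 4.97 (SE 0.13, adjusted p = 8.6e-08), SAMD9L, which inhibits translation, by 3.74 (SE 0.14, adjusted p = 6.23e-07), and LY6E, which encodes a lipid-anchored surface protein that limits coronavirus entry, by 3.38 (SE 0.11, adjusted p = 2.59e-07). The next were NCOA7 (2.80), GMPR (2.76), which converts GMP to IMP, TNFSF10, FBXO6 (2.33), SAMD9 (2.27), the ubiquitin ligase gene RNF213 (2.06), the pseudogene CICP14 (1.99), PHF11 (1.99), the aminopeptidase gene LAP3 (1.92) and STAP1 (1.87). Several of these genes are known to respond to interferon, which the lists did not include.

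**Figure D4:**
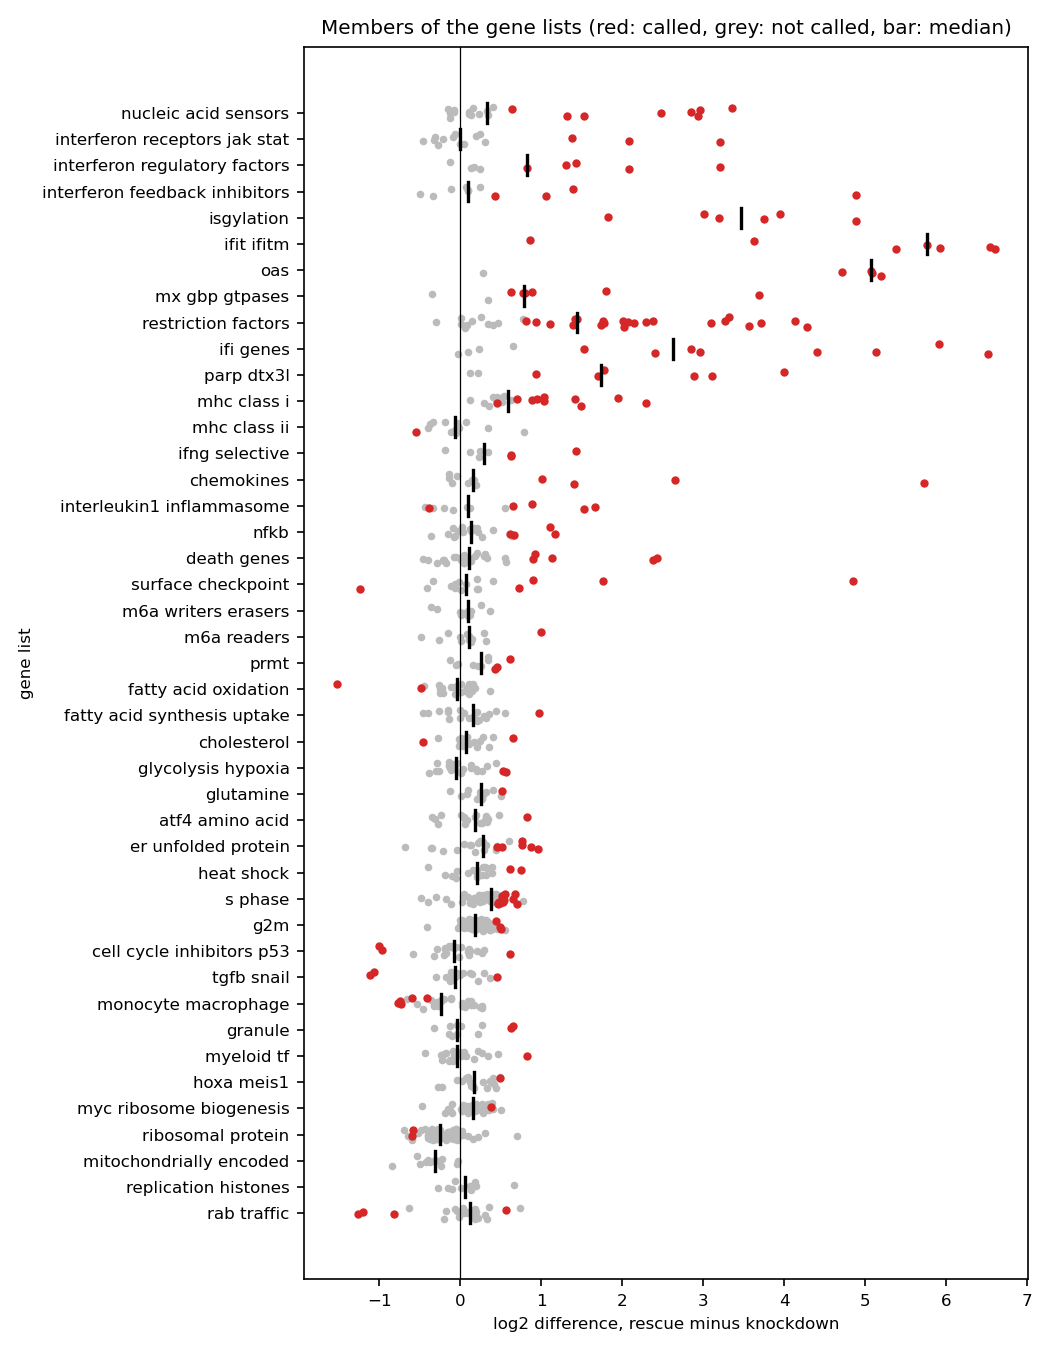
Log2 difference of rescue minus knockdown (x) for every tested member of the gene lists with at least 3 tested members (y, 1 row per list). The title genes and the lists of markers of other cell types are not shown. Red points are called members, grey points are not called, and black bars are list medians. Medians run from 5.76 for the IFIT and IFITM families to -0.32 for mitochondrially encoded genes. Those of the lists shown outside the interferon lists lie within 0.4 of 0. So do those of several interferon lists, among them sensors and adaptors (0.33), chemokines (0.15) and class II genes (-0.06).

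Of 23 genes of endoplasmic reticulum chaperones and the unfolded protein response 6 rose and 0 fell, with a median of 0.28. The genes called were 1 without either knockdown library or rescue replicate 1, and 3 without rescue replicate 2. HSPA5, which encodes the chaperone BiP, read 14.81 and 14.86 in control, 14.75 and 14.72 in knockdown, 15.65 and 15.73 in rescue and 15.26 and 15.25 in mutant rescue. The rescue libraries were the highest and those of mutant rescue next, without overlap, and the difference was 0.96 (SE 0.10, adjusted p = 0.000877). The protein disulfide isomerase genes PDIA4 (0.87), PDIA6 (0.51) and PDIA3 (0.46), with SDF2L1 (0.77) and CRELD2 (0.76), made up the rest. Each of these 5 calls was lost without either knockdown library and without rescue replicate 1, and those of PDIA3, PDIA4 and PDIA6 also without rescue replicate 2 (adjusted p up to 0.343). The promoter window of HSPA5 (chr9:125241294-125241593, minus strand, RefSeq, GRCh38.p14) is printed because this list holds a motif of its own, the endoplasmic reticulum stress element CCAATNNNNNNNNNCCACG, searched on both strands and marked in capitals.
HSPA5: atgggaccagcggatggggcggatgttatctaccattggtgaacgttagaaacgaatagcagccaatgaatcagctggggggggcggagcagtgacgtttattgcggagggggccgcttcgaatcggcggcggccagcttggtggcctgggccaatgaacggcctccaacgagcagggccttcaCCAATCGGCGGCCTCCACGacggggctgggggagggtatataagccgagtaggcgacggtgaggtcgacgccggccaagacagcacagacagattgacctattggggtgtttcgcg
The match begins at -66 relative to the gene start. The motif is in 0.0769% of all promoter windows, and in 14 of the 9423 tested genes with a window (0.149%). A gene counts if any of its windows holds a match. Of the 23 genes 22 have a window, and 7 hold the motif: HSPA5, HSP90B1, CALR, CANX, PDIA6, CRELD2 and XBP1. Among these 7, HSPA5, PDIA6 and CRELD2 rose. Of 19 cytosolic heat shock genes 2 rose, DNAJA1 (0.75, SE 0.11, adjusted p = 0.00829) and HSPB1 (0.61, SE 0.14, adjusted p = 0.045). The DNAJA1 call was lost without either knockdown library or rescue replicate 1 and that of HSPB1 without any 1 of the 4 (adjusted p up to 0.134 and 0.28).

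Some DNA replication genes rose by modest amounts. Of 50 S phase genes 12 rose and 0 fell, with a median of 0.38, and of 50 G2 and mitosis genes 3 rose, with a median of 0.19. MCM5, a subunit of the replicative helicase, read 12.31 and 12.35 in control, 11.82 and 11.83 in knockdown, 12.36 and 12.33 in rescue and 11.88 and 11.74 in mutant rescue. The rescue libraries overlapped control and were above knockdown and mutant rescue. Its difference was 0.52 (SE 0.09, adjusted p = 0.0143). POLA2 (0.70, SE 0.11, adjusted p = 0.00934), a subunit of the priming polymerase, also rose. RFC3, a clamp loader subunit, read 11.31 and 11.33 in control, 9.95 and 10.05 in knockdown, 10.48 and 10.59 in rescue and 10.02 and 9.92 in mutant rescue, so the rescue libraries lay between knockdown and control. Its difference was 0.54 (SE 0.09, adjusted p = 0.0153). E2F1 differed by 0.68 (SE 0.12, adjusted p = 0.0147), with mutant rescue highest at 6.65 and 6.81. The S phase genes called were 0 without either knockdown library, 1 without rescue replicate 1 and 2 without rescue replicate 2. The 89 interferon-list genes called higher became 77 without either knockdown library, and 83 and 80 without the first and the second rescue library. Each S phase gene named here lost its call without any 1 of the 4 compared libraries. The 3 genes of G2 and mitosis, CENPF (0.50), KIF20B (0.49) and CDC20 (0.43), lost theirs without any 1 of the 4 compared libraries. CDKN1B, a cell cycle inhibitor gene, rose by 0.61 (adjusted p = 0.0374), a call lost without any 1 of the 4 compared or the 2 control libraries (adjusted p up to 0.343). It was the only one of 25 p53 target and cell cycle inhibitor genes to rise, and 2 fell, PLK2 and TP53INP1 (-0.96), the latter not without either knockdown or either control library or rescue replicate 1 (adjusted p up to 0.316).

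The largest decreases were in genes of several functions. PCSK5, a proprotein convertase gene, read 10.09 and 10.95 in control, 13.48 and 13.74 in knockdown, 11.60 and 12.32 in rescue and 13.55 and 13.93 in mutant rescue. The rescue libraries lay between those of control and knockdown, and mutant rescue overlapped knockdown. PCSK5 differed by -1.65 (SE 0.31, adjusted p = 0.0212), a call lost without either knockdown library or rescue replicate 1 (adjusted p up to 0.179). CPT1A, the enzyme that admits long-chain fatty acids to mitochondria, read 10.91 and 11.40 in control, 11.40 and 11.40 in knockdown, 9.77 and 9.98 in rescue and 10.68 and 11.08 in mutant rescue. Both rescue libraries were below all 6 others, and the difference was -1.52 (SE 0.18, adjusted p = 0.00175), a 2.88-fold decrease. RAB2B, a GTPase of Golgi traffic, read 9.38 and 9.77 in control, 10.18 and 10.18 in knockdown, 8.92 and 8.92 in rescue and 8.84 and 8.67 in mutant rescue, with both rescue groups below control and knockdown, and differed by -1.26 (SE 0.14, adjusted p = 0.00104). SIGLEC6, another sialic acid receptor gene, read 8.32 and 8.30 in control, 10.82 and 10.70 in knockdown, 9.41 and 9.62 in rescue and 10.03 and 10.52 in mutant rescue, between control and knockdown as PCSK5 was, and differed by -1.24 (SE 0.16, adjusted p = 0.00276).

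The sorting receptor gene SORL1 (-1.21, SE 0.22, adjusted p = 0.0182), the microtubule-binding gene CLASP1 (-1.24, SE 0.22, adjusted p = 0.0175) and TGFBR1 (-1.12, SE 0.25, adjusted p = 0.0459), a TGF-beta receptor, fell by more than 1 as well. Each of these calls was lost in fits without 1 library: CLASP1 without either knockdown library or rescue replicate 1, SORL1 without any 1 of the 4 compared, and TGFBR1 without any 1 of those or the 2 control libraries (adjusted p up to 0.177, 0.169 and 0.261). SNAI1, a transcriptional repressor gene, read 6.41 and 6.38 in control, 7.001 and 7.13 in knockdown, 6.10 and 5.89 in rescue and 5.82 and 6.20 in mutant rescue and differed by -1.07 (SE 0.15, adjusted p = 0.00488), lost without knockdown replicate 2 (adjusted p = 0.0621). PLK2, a target of p53, read 9.91 and 9.80 in control, 10.45 and 10.41 in knockdown, 9.54 and 9.32 in rescue and 9.89 and 9.61 in mutant rescue and differed by -1.002 (SE 0.13, adjusted p = 0.00254). Its rescue libraries were below all 6 others. ZDHHC5, a palmitoyltransferase gene, differed by -0.95 (SE 0.12, adjusted p = 0.00231), MCEMP1, a mast cell membrane protein gene, by -0.93 (SE 0.11, adjusted p = 0.00231), and the GTPase gene RAB3D by -0.82 (SE 0.09, adjusted p = 0.00135), and these 3 calls held in every fit that left out 1 library. MCEMP1 read 9.47 and 9.78 in control, 10.82 and 10.91 in knockdown, 9.95 and 9.92 in rescue and 11.56 and 11.59 in mutant rescue, with mutant rescue highest and rescue between control and knockdown. Among 26 genes of RAB GTPases and endosomal sorting, RAB2B, RAB3D and SORL1 were the 3 that fell, and RAB8A rose (0.57), which was lost without any 1 of the 4 compared libraries (adjusted p up to 0.162). Of 19 genes of TGF-beta signalling and Snail factors 2 fell, TGFBR1 and SNAI1. Of 17 immune checkpoint and leukemia surface genes 4 rose, SIGLEC1, LGALS9 (1.76), HAVCR2 (0.90), which encodes TIM-3, and TNFSF13B (0.73), which encodes BAFF, and SIGLEC6 fell. Without knockdown replicate 1 or knockdown replicate 2, HAVCR2 and TNFSF13B lost their calls, and HAVCR2 lost its call also without rescue replicate 2.

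**Figure D5:**
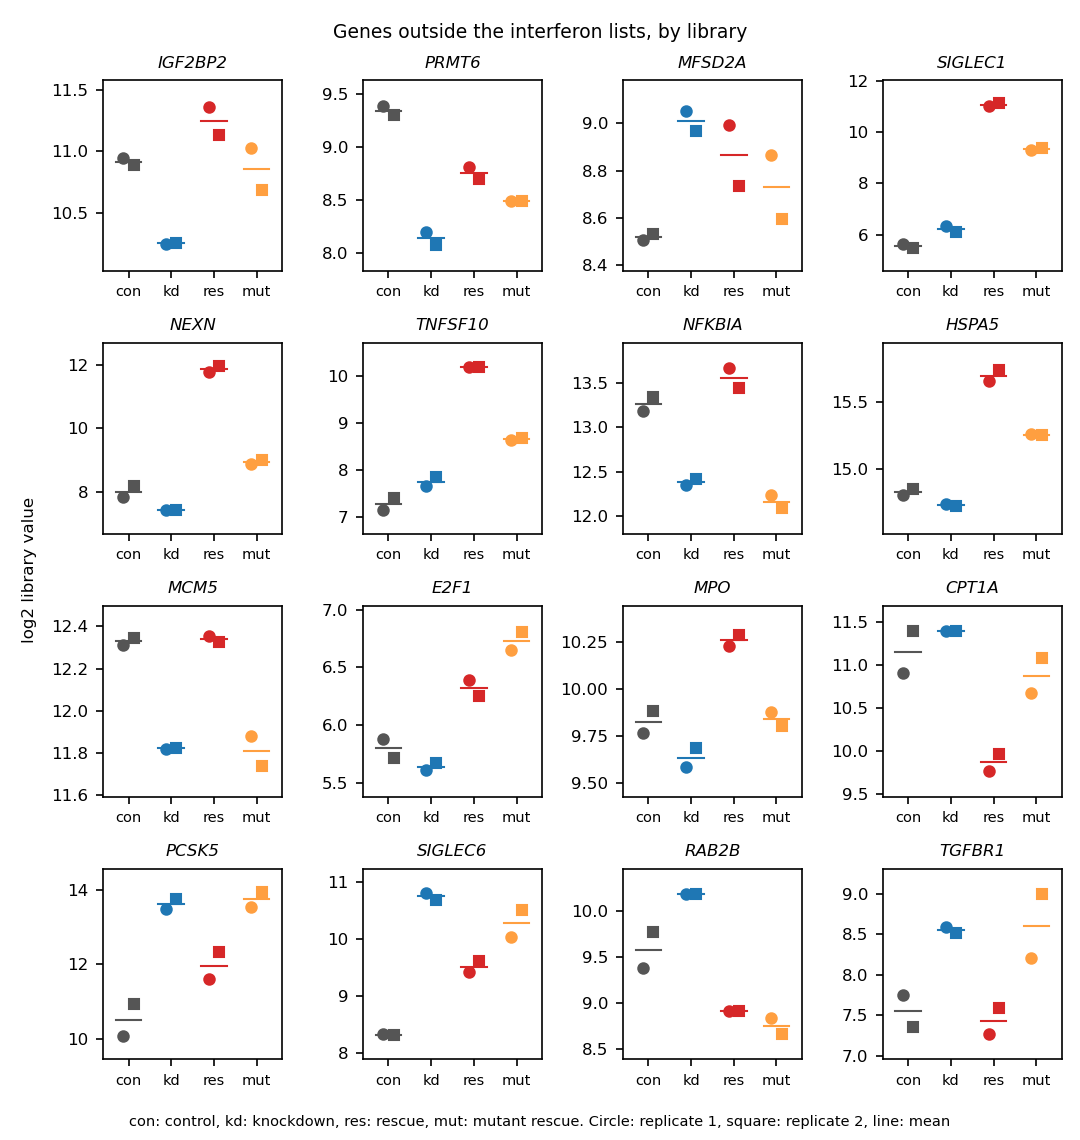
Log2 library values (y, a separate range in each panel) of 16 genes outside the interferon lists in control, knockdown, rescue and mutant rescue; circles are replicate 1, squares replicate 2 and lines group means. SIGLEC1, NEXN, TNFSF10 and HSPA5 are highest in rescue, CPT1A is lowest there (9.77 and 9.98), and PCSK5 and SIGLEC6 in rescue lie between control and knockdown.

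Metabolic lists held few called genes. Of 25 fatty acid oxidation genes 0 rose and 2 fell, CPT1A and PPARD (-0.49, SE 0.11, adjusted p = 0.0442), the latter lost without any 1 of the 4 compared or the 2 control libraries (adjusted p up to 0.343). The median of that list was -0.05. Of 22 genes of fatty acid synthesis and uptake 1 rose, ACSL1 (0.97, SE 0.13, adjusted p = 0.00456), which attaches coenzyme A to long-chain fatty acids, and the call was lost without knockdown replicate 2 (adjusted p = 0.067). In the cholesterol list of 24 genes 1 rose and 1 fell, and the latter, the synthase gene HMGCS1, fell by 0.46 (SE 0.10, adjusted p = 0.037). Of 26 glycolysis and hypoxia genes 2 rose, the glucose transporter gene SLC2A1 (0.53, SE 0.10, adjusted p = 0.0259) and PFKP (0.56, SE 0.09, adjusted p = 0.0113), and of 14 glutamine genes 1 rose, the transporter gene SLC38A1 (0.52, SE 0.11, adjusted p = 0.038). The calls of HMGCS1, SLC2A1 and SLC38A1 were lost without any 1 of the 4 compared libraries, and that of HMGCS1 also without either control library. The PFKP call was lost without either knockdown library and without rescue replicate 1. ATF3, a stress-induced transcription factor gene, was the only one of 19 genes of the ATF4 response and of 20 myeloid transcription factors to rise (0.83), and DKC1 (0.38) the only one of 32 genes of MYC and ribosome biogenesis. ATF3 also lost its call without either knockdown library and without rescue replicate 1, and DKC1 without any 1 of the 4 compared or the 2 control libraries. Among 11 m6A writers and erasers 0 were called, and among 14 m6A readers IGF2BP2 was the only one. PRMT6, PRMT7 (0.42, SE 0.09, adjusted p = 0.0364) and CLNS1A (0.45, SE 0.10, adjusted p = 0.0492) rose among 11 arginine methyltransferase genes and partners, and 0 of these remained called without any 1 of the 4 compared libraries.

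Myeloid lists held few called genes. In the list of 28 monocyte and macrophage genes 5 members fell and 0 rose, with a median of -0.24. S100A8, a calcium-binding alarmin gene, read 8.69 and 8.995 in control, 9.35 and 9.38 in knockdown, 8.70 and 8.57 in rescue and 9.31 and 9.32 in mutant rescue, and its rescue libraries were below those of knockdown and mutant rescue. The other 4 were the integrin gene ITGAX (-0.75), the proteoglycan gene VCAN (-0.78), the complement gene C1QA (-0.60) and VSIG4 (-0.41). All 5 calls were lost without any 1 of the 4 compared libraries (adjusted p up to 0.343), and those of C1QA and VSIG4 also without either control library. The granule enzyme genes MPO (0.62, SE 0.10, adjusted p = 0.00851) and PRTN3 (0.66, SE 0.14, adjusted p = 0.0397) rose among 11 granule genes, and HOXA9 (0.49, SE 0.09, adjusted p = 0.0259) among 19 genes of the HOXA and MEIS1 program, and these calls too were lost without any 1 of the 4 (adjusted p up to 0.339). Of the 4 tested lymphoid markers 2 rose, IL7R (0.59, SE 0.11, adjusted p = 0.0259) and the B cell factor gene PAX5 (0.62, SE 0.08, adjusted p = 0.00206), at levels of 4.71 to 6.16 in the compared libraries, and the IL7R call was lost without any 1 of these (adjusted p up to 0.206). Of 3 erythroid and megakaryocyte markers tested GP1BA fell (-0.34, lost without any 1 of the 4 compared libraries, adjusted p up to 0.25), and of 3 stromal and epithelial markers 0 were called. The part of these markers in the results was not tested. CD3E, MS4A1 and 8 other markers of other cell types were at 0 in every library.

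Most ribosomal protein and mitochondrial transcripts had lower values in rescue, and few passed the test. Of 75 cytosolic ribosomal protein genes 0 rose and 2 fell, RPL7 (-0.60, SE 0.11, adjusted p = 0.0239) and RPS19 (-0.59, SE 0.12, adjusted p = 0.0364), but 68 of the 75 differences were negative, with a median of -0.25. After quantile normalization 13 of them were called lower, and 10 on log2(ppm + 1). Over all 13030 genes tested, 210 and 418 were called lower under these scalings, with medians of -0.01 and -0.09. The calls of RPL7 and RPS19 were lost without either knockdown library and without rescue replicate 2, and that of RPL7 also without rescue replicate 1. All 13 mitochondrially encoded genes had a negative difference and 0 were called, with a median of -0.32, and under the other scalings this median stayed negative, down to -0.44. Among 7 tested MTRNR2L genes, which are nuclear copies of the mitochondrial ribosomal RNA gene and were grouped after their values were seen, 4 fell, led by MTRNR2L12 (-0.91, SE 0.10, adjusted p = 0.00139). MTRNR2L12 read 13.85 and 13.94 in control, 14.22 and 14.33 in knockdown, 13.33 and 13.40 in rescue and 14.34 and 14.47 in mutant rescue. Its rescue libraries were the lowest, and reads of these copies cannot be told apart from mitochondrial ones.

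Levels in rescue were also set beside those in control. These comparisons share the rescue or the knockdown libraries with the one above, so their values are given side by side only. Against control, 640 genes (4.91% of those tested) were higher in rescue and 296 (2.27%) were lower. In the interferon lists 109 of 179 were higher and 0 lower, with a median of 0.79. The 179 include IFNA2, GBP1 and SERPING1, which passed the filter only through rescue. In knockdown against control 697 genes (5.35%) were higher and 970 (7.44%) lower, and in the interferon lists 31 were higher and 2 lower, with a median of 0.16. The 1667 genes called in knockdown against control became 187 and 179 when the first or the second knockdown library was left out, and 492 without control replicate 2. The 936 called in rescue against control became 361 without rescue replicate 2 and 1422 without mutant rescue replicate 1. The S phase list had 37 of 50 members lower in knockdown than in control and, in rescue against control, 9 lower and 1 higher, with medians of -0.55 and -0.23. The monocyte list had 18 of 28 members higher in knockdown than in control and, in rescue against control, 14 higher and 1 lower, with medians of 0.60 and 0.40. By the median over the 179 tested genes of the interferon lists, rescue stood above both control and knockdown. This did not hold for every single list. The class II list in rescue had medians of 0.08 against control and -0.06 against knockdown. Those of the receptor, kinase and STAT list were 0.255 and 0.00. By their medians, the S phase and monocyte lists in rescue stood between control and knockdown.

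Rescue was compared with mutant rescue as well, the group given a mutant IGF2BP2. Against it 769 genes (5.9% of those tested) were higher in rescue and 601 (4.61%) were lower, and in the interferon lists 84 of 179 were higher and 12 lower, with a median of 0.43. The 89 interferon-list genes that rose over knockdown include IFNA2, GBP1 and SERPING1, which passed the filter only through rescue. Of the 89, 77 were higher in rescue than in mutant rescue by this test and 0 were lower. IFITM1 showed the largest of these differences (3.13, SE 0.13, adjusted p = 2.33e-05), followed by CXCL10 (3.06, SE 0.18, adjusted p = 6.82e-05) and LGALS3BP (2.78, SE 0.15, adjusted p = 4.26e-05). Among the 12 others, IRF9 (0.29), B2M (0.24) and CCL3 (0.21) had small differences that did not pass the test. For 83 of the 89 genes both mutant rescue libraries were also above both knockdown libraries. The 89 were picked as higher than these same knockdown libraries, which favours that outcome. No share over all genes tested is given beside it, so the count is a description only. Set against the control mean, the IFIT and IFITM list had medians of 0.09 and 0.20 in knockdown, 2.87 and 3.07 in mutant rescue and 6.05 and 6.02 in rescue. The class II list ran the other way, with 1 of 14 members higher and 7 lower in rescue than in mutant rescue, among them HLA-DRA (-0.92, SE 0.12, adjusted p = 0.0042) and CD74 (-0.66, SE 0.13, adjusted p = 0.0182). Replicates of mutant rescue differed most of the 4 groups (SD of 0.303). The 1370 genes called against it became 192 in a fit of only these 4 libraries, 241 without rescue replicate 2 and 2870 without mutant rescue replicate 1.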

How the data were processed

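Polyadenylated RNA of MOLM13 cells was sequenced in 4 groups of 2 libraries. The data are a single table, per the file headers the output of a HOMER program for differential expression. Trim Galore, kallisto and HOMER are listed in the submitters' processing notes, as is GRCh38, but not how each was used. Each library has a column of log2 values, normalized by the authors over all 8 libraries, and values of low genes lie close together. Fold changes (log2) and p-values of the authors' own tests, deposited in the same table, are used only for interferon genes, from the authors' deposited table. Of 35370 genes 10937 are at 0 in every library, 1 has no symbol and 26 have a number in place of one. Counts are not used here, so sequencing depth and counting error are unknown.

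Groups and replicate numbers came from sample titles. A gene was kept if its linear value reached 1 ppm of the library total in 2 or more libraries (13030 genes). limma 3.58.1 in R 4.3.3 was run on the log2 values with no pseudocount, in 1 model of group means (4 residual degrees of freedom) with empirical Bayes moderation, a mean trend and Benjamini-Hochberg adjustment over all genes tested. Genes with an adjusted p under 0.05 were called. A fold is 2 to the power of the difference, and understates changes of low genes. The procedure was tested on simulated data. The alternatives tried were other libraries in the fit, filters, scalings, no trend, library weights, a replicate block and each library left out.

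The members and the 48 gene lists were chosen with earlier results of these data known. Named are the genes of the title; of called genes without overlap and with at least 5 ppm in the higher group, the 20 largest increases, the 15 largest outside the interferon lists and the 25 largest decreases; up to 8 called members per list by adjusted p (where none is called, the 2 with the highest mean); and any interferon-list member. Positions are from GENCODE v29 and promoter windows from RefSeq (GRCh38.p14), matched by symbol for 9423 genes (72.3%). Some genes are not reported here.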

Additional observations from a re-analysis of the deposited data

Results flagged for a closer look

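Interferon genes under the filter on low values took no part in the comparison. For 5 of them both rescue libraries were more than 0.3 above the highest of the 6 other libraries, the 2 control libraries included. IFNA10 and IFNE were also higher in both rescue libraries, but by at most 0.0235. The differences of rescue minus knockdown were 0.62 for IFNA1, 0.47 for IFNA8, 0.38 for IFNA13, 0.57 for IFNB1 and 0.56 for IFNL1. IFNA8 read 2.56 and 2.56 in control, 2.56 and 2.56 in knockdown, 2.99 and 3.08 in rescue and 2.56 and 2.56 in mutant rescue, and IFNA13 read 2.30 and 2.30 in control, 2.30 and 2.30 in knockdown, 2.66 and 2.69 in rescue and 2.30 and 2.30 in mutant rescue. In the authors' deposited table, the log2 changes of rescue over knockdown were 7.75 for IFNA1, 7.33 for IFNA8, 6.98 for IFNA13, 5.27 for IFNB1 and 4.67 for IFNL1, each with an adjusted p of 1, and 8.79 for IFNA2 with an adjusted p of 6.59e-07. In a fit with no filter on low values limma called these 5 genes. They were picked by the same values, which lie close together outside rescue, so that call is no further evidence and its p-values are not given. The remaining interferon genes above 0, IFNA7, IFNA10, IFNA14, IFNE, IFNG and IFNW1, were not called in that fit (adjusted p from 0.109 to 0.957).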

How the results depend on the processing

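Of the 191 named genes called in rescue against knockdown, 108 kept their call in every one of 18 alternatives that tested them. The call was lost in at least 1 for 83, and 0 changed sign. Under a filter of 5 ppm, 179 of the 191 were called. BATF2, GBP1, IFNA2, PAX5 and SERPING1, counted among the 108, were not tested under that filter. Of these, IFNA2, GBP1 and SERPING1 passed the main filter only through rescue. The counts of genes higher and lower in rescue than in knockdown (420 and 133) were 865 and 381 with only the 4 libraries compared, and 1050 and 583 with library weights. The lower count was 266 without the mutant rescue group, 210 after quantile normalization and 418 on log2(ppm + 1). Leaving out 1 library gave 155 to 601 higher and 18 to 266 lower genes. By library, the counts were 155 and 21 without knockdown replicate 1, 158 and 18 without knockdown replicate 2, 202 and 34 without rescue replicate 1, and 201 and 42 without rescue replicate 2, fits in which 1 library stands for its group and is assumed to vary like the others. Rescue against control (936 called) gave 1421 without the mutant rescue group and 361 to 1422 with 1 library left out. Knockdown against control (1667) gave 2620 with only the 4 libraries compared and 179 to 2359 with 1 left out. Rescue against mutant rescue (1370) gave 192 with only those 4 libraries and 241 to 2870 with 1 left out. With a replicate block the counts were 434 higher and 158 lower, and the interferon lists held 90 higher genes. Of the 191 named genes 187 kept their call under the block, and DKC1, PPARD and VSIG4 were among those that lost it. Replicate differences of same-numbered libraries correlated across genes at -0.02 (control and knockdown) to 0.41 (knockdown and rescue), over 0.1 in 3 of 6 pairs of groups, and the labels name nothing that the numbers share, so the numbers were not taken to pair the samples. Depth could not be assessed, as the values are not counts.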
